A study of Mus musculus with 20 samples.

Results

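The nuclear-encoded respiratory chain genes comprised 95 of the 25746 genes in the count table. They were the rows whose symbols begin with Nduf, Uqcr, Cox4 to Cox8 or Atp5, together with Sdha, Sdhb, Sdhc, Sdhd and the succinate dehydrogenase assembly factors, with at least 100 counts summed over the 10 RNA libraries. Of 99 rows with such a symbol, 4 were left out: Ndufb1-ps for its suffix, and Cox8c, Cox7b2 and a second Atp5o row because they had 0 counts. All 95 genes passed the filter on low counts and were among the 14968 genes tested. They were set beside the 13 protein genes of the mitochondrial genome, and the mitochondrial rRNA genes were not analysed here. The rule used gene symbols and the count minimum and no other measured value, but it was chosen with earlier results of these data known.

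Cells of the Tcf21 lineage were sorted as eGFP-positive cardiac fibroblasts from mouse hearts after myocardial infarction (MI) and from uninjured hearts, and were used for RNA-seq and for ATAC-seq, a map of accessible chromatin. Both assays had 10 libraries, with 2 in each of 5 groups: uninjured, and 3 days, 7 days, 2 weeks and 4 weeks after MI. All groups carried the same tamoxifen-inducible MerCreMer lineage label, induced with 75 mg/kg of tamoxifen per day for 5 days, and RNA was taken from 10000 sorted cells. Cells that switch on Tcf21 during the tamoxifen course, and their descendants, carry the label whatever they express later. The animals' age and strain were not given in the labels. Whether both libraries of a group derive from different animals is not stated. Replicates 1 and 2 had 2167 and 8 counts of Y-chromosome genes at day 3, 7 and 4279 at day 7 and 8 and 6605 at week 4. These pairs therefore cannot be repeats of the same cells, whereas the Y counts do not settle this for uninjured hearts and week 2. A p-value here reflects only how far these libraries differ, which may in part be technical.

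The respiratory chain passes electrons from NADH and succinate through complexes I to IV of the inner mitochondrial membrane to oxygen, and the proton gradient that complexes I, III and IV build drives ATP synthase, or complex V. Most subunits are encoded in the nucleus and imported, and a small hydrophobic set is encoded in the mitochondrial genome, so that complexes I, III, IV and V are assembled from the products of both genomes, whereas complex II is wholly nuclear-encoded. Quiescent cardiac fibroblasts are activated after MI to proliferate, migrate and deposit matrix.

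The RNA libraries held 16397211 to 21043997 counts, and TMM factors ran between 0.964 and 1.05. Levels are given as CPM (counts per 1e6) on TMM-scaled library totals, and each number pair gives replicates 1 and 2 of a group. Without gene lengths, CPM of different genes were not compared, and a sum over genes is a share of the counts. All 10 fibroblast markers were detected, with summed levels of 63330 and 66390 CPM in uninjured hearts, 32770 and 20660 at day 3, 36770 and 43120 at day 7, 39990 and 30050 at week 2 and 64190 and 60840 at week 4. Genes of the Y chromosome had 2167 to 7901 counts in 5 libraries and 4 to 12 counts in the other 5, which included both uninjured libraries, day 3 replicate 2, day 7 replicate 1 and week 4 replicate 1. Both week 2 libraries had high Y counts, 7901 and 7344. In week 2 against uninjured hearts, a difference tied to the sex of the animals therefore cannot be told apart from one between groups. The other comparisons with uninjured hearts are partly confounded with sex in the same way. Week 2 replicate 2 stood apart from its partner: 80 of the 95 genes were higher in replicate 2 than in replicate 1, with a median log2 difference of 0.61, and 15 differed by more than 2-fold.

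At day 3 after MI the RNA of 15 of the 95 nuclear-encoded genes rose relative to uninjured hearts and that of 0 fell, in edgeR's quasi-likelihood test at a Benjamini-Hochberg adjusted p of 0.05 over all tested genes. The 15 were Atp5a1, Atp5c1, Atp5e, Atp5f1, Atp5g1, Atp5g2, Atp5g3 and Atp5o of ATP synthase, Cox5a, Cox5b, Cox6b1 and Ndufa4 of complex IV, Uqcrc2 and Uqcrq of complex III, and Ndufs5 of complex I. Over all tested genes 7.39% rose and 4.4% fell, whereas 15.8% of the nuclear-encoded genes rose. At an unadjusted p under 0.05, 43 were higher and 0 lower, against 2101 higher and 1637 lower of the 14968 tested genes. DESeq2 called 23 of the 95. The median log2 fold change of the 95 was 0.57, against -0.02 over all tested genes. In both day 3 libraries 73 of the 95 were above both uninjured libraries, while 6 were below both. Of the 14968 tested genes, 4410 were above both and 4575 below both. The summed level of the 95 was 12780 and 14890 CPM at day 3, against 9108 and 9401 CPM in uninjured hearts. Both day 3 sums lay above both uninjured sums. All 15 genes encode structural subunits, of which there were 83, while 0 of the 12 assembly-factor genes passed at day 3, with 1 higher at an unadjusted p under 0.05 and 0 called by DESeq2. The median log2 fold change was 0.58 in the 83 and 0.23 in the 12, and whether the classes differ was not tested. The count rested on few libraries: it was 2 without day 3 replicate 2 or without either uninjured library, 8 without week 4 replicate 2, 23 without week 2 replicate 1 and 24 without week 2 replicate 2. The median log2 fold change stayed between 0.41 and 0.63 over the same omissions.

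Macrophage and monocyte markers were higher at day 3 too: 12 of 16 passed, and their summed level was 799 and 1404 CPM at day 3, against 117 and 123 CPM in uninjured hearts. Their sum was higher still at day 7, 2485 and 4182 CPM, where the summed level of the nuclear-encoded genes was 10220 and 11240 CPM. Endothelial markers were lower at day 3, with 7 of 12 falling and sums of 431 and 325 CPM, against 831 and 745 CPM in uninjured hearts. Of the 10 fibroblast markers 5 fell and 3 rose at day 3, and their summed level was 32770 and 20660 CPM at day 3, against 63330 and 66390 CPM in uninjured hearts. The part of fibroblast state and of other cell types in the respiratory chain result was not tested. In sorted bulk samples, a change in the share of cells of one type and a change in RNA per cell cannot be told apart.

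**Figure D1:**
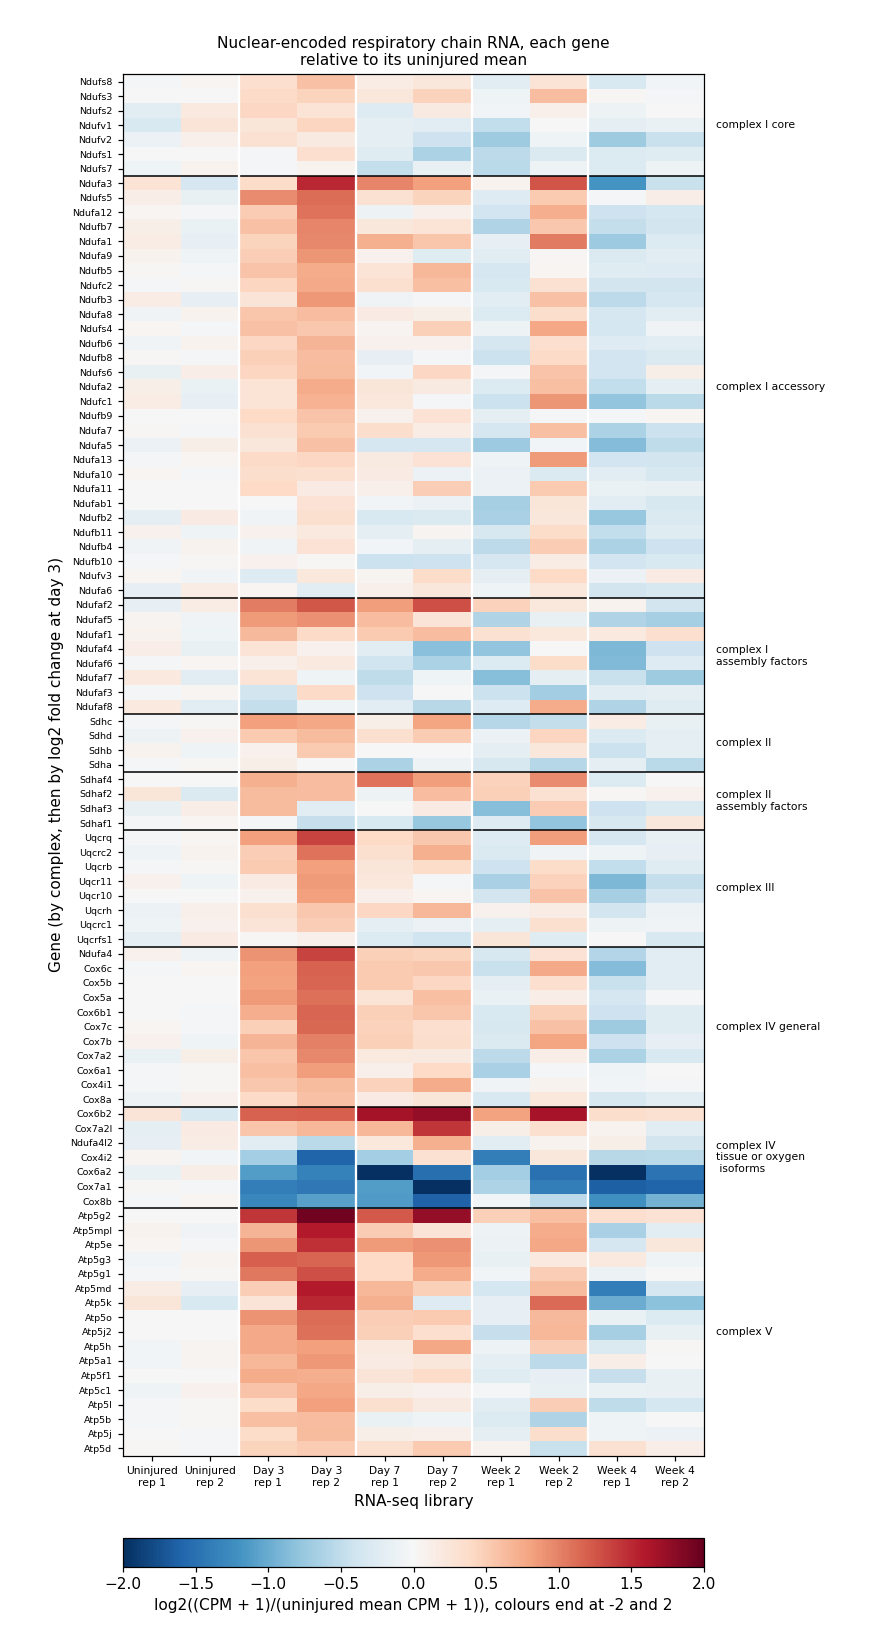
Each row is 1 of the 95 nuclear-encoded genes and each column 1 RNA library. Colour gives log2 of CPM + 1 relative to the uninjured mean of the same gene, from blue (lower) to red (higher). The day 3 columns are mostly red and the week 4 columns mostly pale blue. In the day 3 columns the 3 muscle isoforms Cox6a2, Cox7a1 and Cox8b are blue where most other rows are red.

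Over the 5 groups, 20 of the 95 genes differed in edgeR's test among groups, 21.1% against 15.7% of all tested genes. Mean levels peaked at day 3 for 78 of the 95, and were lowest at week 4 for 69. The count among groups was 3 without day 3 replicate 2, 9 and 10 without week 4 replicates 1 and 2, 12 without day 7 replicate 2, and 38 and 43 without week 2 replicates 1 and 2.

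ATP synthase held the largest share of genes that rose. At day 3, 8 of its 17 genes rose, all 17 lay above both uninjured libraries, and the median log2 fold change was 0.95. Over all tested genes 7.39% rose, and 4410 of 14968 lay above both uninjured libraries. The summed level of the 17 genes was 3965 and 4580 CPM at day 3, against 2414 and 2479 CPM in uninjured hearts.

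The 3 lowest adjusted p-values among the 95 genes at day 3 were those of the c-subunit genes. The c subunit forms the proton-carrying ring of the membrane sector, and Atp5g1, Atp5g2 and Atp5g3 encode the same mature c subunit with different import sequences. Atp5g2 (ENSMUSG00000062683, chr15:102662864-102672352) had 37.4 and 37.4 CPM in uninjured hearts, 103 and 145 at day 3, 89.1 and 129 at day 7, 52.3 and 57.2 at week 2 and 47.5 and 46.1 at week 4. Both libraries of day 3 and of day 7 lay above every library of the other groups. Its level was 3.32 times that of uninjured hearts at day 3, a log2 fold change of 1.73 ± 0.27 (SE, edgeR adjusted p = 0.0018), and it also rose at day 7, by 1.54 ± 0.27 (adjusted p = 0.0055). Atp5g3 (ENSMUSG00000018770, chr2:73908447-73911326) had 89.2 and 95.7 CPM in uninjured hearts, 213 and 209 at day 3, 123 and 169 at day 7, 83.5 and 106 at week 2 and 106 and 87.1 at week 4. Day 3 did not overlap any other group, with a log2 fold change of 1.19 ± 0.24 (edgeR adjusted p = 0.0064). Atp5g1 (ENSMUSG00000006057, chr11:96068852-96075670) had 113 and 116 CPM in uninjured hearts, 238 and 280.4 at day 3, 151 and 193 at day 7, 110.3 and 162 at week 2 and 105 and 113 at week 4. It too was highest in the day 3 libraries without overlap, with a log2 fold change of 1.18 ± 0.24 (edgeR adjusted p = 0.0071). Atp5g2 at day 3 passed under every alternative tried, 17 in all, whereas Atp5g1 lost its call without day 3 replicate 2 or uninjured replicate 2, and Atp5g3 without uninjured replicate 1.

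The promoters of these 3 genes and of Atp5e and Atp5f1, which also rose at day 3, are shown because these 5 genes rose at the same time and their promoters hold different motifs. Each is 300 bases, 250 before and 50 after the RefSeq start, 5′ to 3′ on the minus strand of GRCm38.p6. Capitals mark matches on either strand to 4 motifs of factors known to act on respiratory genes: GCGCANGC (NRF1), CCGGAAG (ETS), AAGATGGC (YY1) and AAGGTCA (ERR).
Atp5g1 promoter, chr11:96075582-96075881: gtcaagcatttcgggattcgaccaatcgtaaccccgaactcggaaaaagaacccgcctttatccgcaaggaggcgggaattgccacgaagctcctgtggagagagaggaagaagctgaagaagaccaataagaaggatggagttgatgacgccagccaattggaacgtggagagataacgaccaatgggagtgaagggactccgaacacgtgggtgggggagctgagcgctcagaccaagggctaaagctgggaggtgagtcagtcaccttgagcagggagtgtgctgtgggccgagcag
Atp5g2 promoter, chr15:102670998-102671297: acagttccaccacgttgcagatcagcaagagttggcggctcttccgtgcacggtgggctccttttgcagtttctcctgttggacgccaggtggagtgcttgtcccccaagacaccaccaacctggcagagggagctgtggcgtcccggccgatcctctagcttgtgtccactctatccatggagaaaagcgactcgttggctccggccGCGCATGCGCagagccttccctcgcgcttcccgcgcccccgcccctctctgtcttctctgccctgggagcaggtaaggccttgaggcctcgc
Atp5g3 promoter, chr2:73911277-73911576: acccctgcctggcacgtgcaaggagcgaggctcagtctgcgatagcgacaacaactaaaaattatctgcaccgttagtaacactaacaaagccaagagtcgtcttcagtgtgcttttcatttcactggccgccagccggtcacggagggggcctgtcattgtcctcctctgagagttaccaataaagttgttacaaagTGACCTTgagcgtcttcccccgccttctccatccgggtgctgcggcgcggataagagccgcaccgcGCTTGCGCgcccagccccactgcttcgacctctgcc
Atp5e promoter, chr2:174464052-174464351: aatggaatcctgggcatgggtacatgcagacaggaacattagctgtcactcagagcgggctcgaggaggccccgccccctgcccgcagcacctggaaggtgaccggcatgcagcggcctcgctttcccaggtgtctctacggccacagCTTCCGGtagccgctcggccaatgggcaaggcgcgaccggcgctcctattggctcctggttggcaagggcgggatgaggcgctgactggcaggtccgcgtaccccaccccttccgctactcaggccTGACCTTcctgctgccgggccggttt
Atp5f1 promoter, chr3:105959214-105959513: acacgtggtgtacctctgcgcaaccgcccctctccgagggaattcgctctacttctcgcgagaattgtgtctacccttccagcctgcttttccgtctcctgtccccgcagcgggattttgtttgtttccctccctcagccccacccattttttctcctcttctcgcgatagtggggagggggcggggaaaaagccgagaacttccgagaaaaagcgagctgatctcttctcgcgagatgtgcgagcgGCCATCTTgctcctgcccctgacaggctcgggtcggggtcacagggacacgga
The Atp5g1 window held 0 matches to the 4 motifs and 5 to CCAAT. The Atp5g2 window held 2 overlapping NRF1 matches on opposite strands. Atp5g3 had 1 NRF1 and 1 ERR match, Atp5e 1 ETS and 1 ERR match, and Atp5f1 1 YY1 match. Among the other genes that rose at day 3, Atp5c1, Cox5a, Cox5b and Ndufa4 held 0 matches to the 4 motifs. Atp5o had 1 NRF1 match, Cox6b1 1 ETS match, and Ndufs5 1 NRF1 and 1 ERR match. No RefSeq promoter was matched for Atp5a1, Uqcrc2 and Uqcrq. The RefSeq start of Atp5g2 lies 1305 bases from the start given in the count table, and that of Atp5f1 836 bases. All 10 ATAC-seq libraries had a peak at the start of each of the 5 genes shown. A match is a description of the letters and was not tested for binding.

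The catalytic head of ATP synthase was higher at day 3 as well. Atp5a1 (alpha subunit) had 342 and 368 CPM in uninjured hearts, 563 and 648 at day 3, 396 and 416 at day 7, 314 and 247 at week 2 and 390.5 and 356 at week 4. Its day 3 libraries lay above all others, with a log2 fold change of 0.77 ± 0.20 (edgeR adjusted p = 0.026). Atp5b, the catalytic beta subunit, had 493 and 506 CPM in uninjured hearts, 758 and 765 at day 3, 456 and 470.3 at day 7, 414 and 328 at week 2 and 473 and 498 at week 4. The day 3 libraries of Atp5b did not overlap any other group, but its log2 fold change of 0.61 ± 0.19 did not pass at day 3 (edgeR adjusted p = 0.061). Atp5c1, the gamma subunit of the rotating stalk, had 242 and 274 CPM in uninjured hearts, 382 and 444 at day 3, 279.8 and 275 at day 7, 252 and 234 at week 2 and 236 and 234 at week 4. It rose by 0.68 ± 0.19 (edgeR adjusted p = 0.036) on the log2 scale, and no library outside day 3 exceeded 279.8 CPM. Atp5e, the epsilon subunit of the same stalk, had 56.1 and 52.9 CPM in uninjured hearts, 101 and 151 at day 3, 99.5 and 103 at day 7, 49.9 and 94.2 at week 2 and 42.8 and 64.0 at week 4. Its log2 fold change at day 3 was 1.21 ± 0.33 (edgeR adjusted p = 0.032), and the lower day 3 library lay below the higher day 7 one.

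The peripheral stalk holds the head still against the rotor. Its b subunit gene, Atp5f1, had 199 and 197 CPM in uninjured hearts, 330.4 and 327 at day 3, 236 and 254 at day 7, 167 and 176 at week 2 and 143 and 179 at week 4. Day 3 stood clear of all other groups, with a log2 fold change of 0.73 ± 0.19 (edgeR adjusted p = 0.028). Atp5o, encoding the oligomycin sensitivity-conferring protein that joins stalk and head, had 167 and 167 CPM in uninjured hearts, 311 and 362 at day 3, 236 and 240.3 at day 7, 149 and 262 at week 2 and 151 and 138 at week 4. It rose by 1.01 ± 0.25 on the log2 scale (edgeR adjusted p = 0.02), and week 2 replicate 2 stood well above week 2 replicate 1. The small membrane-sector genes moved with a wider spread. Atp5j2 (f subunit) had 72.6 and 72.5 CPM in uninjured hearts, 124 and 157 at day 3, 101 and 91.8 at day 7, 52.3 and 116 at week 2 and 45.6 and 65.6 at week 4. Atp5mpl had 31.1 and 28.3 CPM in uninjured hearts, 48.1 and 91.0 at day 3, 42.8 and 35.8 at day 7, 27.5 and 50.6 at week 2 and 18.6 and 25.4 at week 4. Atp5md had 39.2 and 31.2 CPM in uninjured hearts, 50.1 and 108 at day 3, 56.5 and 49.4 at day 7, 27.5 and 55.2 at week 2 and 12.9 and 27.7 at week 4. In Atp5mpl and Atp5md, day 3 replicate 2 was far above replicate 1, and none of the 3 genes passed at day 3, with log2 fold changes of 0.95 ± 0.34, 1.23 ± 0.39 and 1.17 ± 0.46.

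Complex IV, cytochrome c oxidase, is described here in its general subunits and in a class of tissue- or oxygen-dependent isoforms that also holds Cox7a2l, and the difference between these classes was not tested. Of 11 general subunit genes, 4 rose at day 3, and all 11 lay above both uninjured libraries, with a median log2 fold change of 0.86. Of 7 isoform genes 0 passed at day 3, 5 lay below both uninjured libraries and 2 above both, with a median of -1.15. Over all tested genes 7.39% rose, and of 14968 genes 4410 lay above and 4575 below both uninjured libraries. At an unadjusted p under 0.05, 1 of the 7, Cox7a2l, was higher, and DESeq2 called 0.

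Among general subunits, Ndufa4 changed most clearly. It was once assigned to complex I and is now placed in complex IV. Ndufa4 (ENSMUSG00000029632, chr6:11900292-11907497) had 87.8 and 77.4 CPM in uninjured hearts, 155 and 211 at day 3, 116 and 112 at day 7, 66.2 and 102 at week 2 and 54.8 and 71.2 at week 4. The day 3 values were the highest, with a log2 fold change of 1.15 ± 0.27 (edgeR adjusted p = 0.016). Cox5a and Cox5b flank the catalytic core. Cox5a had 71.8 and 71.1 CPM in uninjured hearts, 130.0 and 155 at day 3, 86.5 and 109 at day 7, 64.8 and 78.6 at week 2 and 56.1 and 69.4 at week 4. Cox5b had 80.4 and 79.0 CPM in uninjured hearts, 141 and 180.2 at day 3, 114 and 107 at day 7, 70.4 and 101 at week 2 and 58.5 and 68.8 at week 4. Neither overlapped between day 3 and any other group, and their log2 fold changes were 1.00 ± 0.24 and 1.01 ± 0.25 (edgeR adjusted p = 0.019 for each). Cox6b1, which faces the intermembrane space, had 114 and 112 CPM in uninjured hearts, 188 and 254 at day 3, 158 and 166 at day 7, 91.1 and 157 at week 2 and 84.1 and 95.1 at week 4. It rose by 0.97 ± 0.27 on the log2 scale (edgeR adjusted p = 0.034).

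The other general subunits were higher at day 3 without passing. Cox4i1, the common form of subunit 4, had 277 and 287 CPM in uninjured hearts, 409 and 436 at day 3, 387 and 472 at day 7, 268 and 297 at week 2 and 271 and 278 at week 4. Its day 7 libraries overlapped its day 3 libraries, and it differed among the 5 groups (edgeR adjusted p = 0.04). Cox6a1 had 168 and 175 CPM in uninjured hearts, 260.1 and 309 at day 3, 184 and 227 at day 7, 109 and 169 at week 2 and 161 and 170.0 at week 4. Cox7a2 had 65.7 and 78.6 CPM in uninjured hearts, 107 and 141 at day 3, 82.8 and 81.6 at day 7, 49.8 and 79.1 at week 2 and 46.1 and 58.1 at week 4. Both differed among groups, with edgeR adjusted p of 0.047 and 0.046. Cox6c had 95.6 and 102 CPM in uninjured hearts, 174 and 225 at day 3, 143 and 144 at day 7, 72.5 and 168 at week 2 and 53.9 and 84.5 at week 4. Cox7c had 79.1 and 74.8 CPM in uninjured hearts, 107 and 171 at day 3, 106 and 97.3 at day 7, 61.5 and 117 at week 2 and 46.6 and 64.8 at week 4. In both, week 2 replicate 2 reached the day 7 range or above while replicate 1 lay below the uninjured libraries. Cox8a, the common form of subunit 8, had 104 and 119 CPM in uninjured hearts, 146 and 169 at day 3, 125 and 132 at day 7, 89.8 and 129.6 at week 2 and 89.2 and 96.3 at week 4. Its log2 fold change at day 3 was 0.49 ± 0.23, which did not pass (edgeR adjusted p = 0.21).

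The isoform partners of these subunits had other patterns. Cox6a2, Cox7a1 and Cox8b are forms of heart and skeletal muscle. Cox6a2 had 5.44 and 6.75 CPM in uninjured hearts, 2.25 and 1.77 at day 3, 0.689 and 1.51 at day 7, 3.44 and 1.52 at week 2 and 0.619 and 1.56 at week 4. Cox7a1 had 4.48 and 4.29 CPM in uninjured hearts, 1.07 and 0.998 at day 3, 1.48 and 0.241 at day 7, 2.497 and 1.07 at week 2 and 0.742 and 0.779 at week 4. Cox8b had 1.97 and 2.14 CPM in uninjured hearts, 0.237 and 0.443 at day 3, 0.394 and 0 at day 7, 1.94 and 1.12 at week 2 and 0.309 and 0.584 at week 4. All 3 were lower at day 3 than in uninjured hearts without overlap, but none passed, with log2 fold changes of -1.59 ± 1.36, -2.08 ± 1.70 and -2.57 ± 2.29 and edgeR adjusted p of 0.51, 0.49 and 0.53. These 3 genes are also in the list of 18 cardiomyocyte markers, whose summed level was 162 and 116 CPM at day 3, against 271 and 327 CPM in uninjured hearts. All 18 markers were detected, and at day 3 1 fell and 1 rose. At day 3 14 of the 18 lay below both uninjured libraries, against 4575 of the 14968 tested genes. The part of cardiomyocyte RNA in the levels of the 3 isoforms was not tested.

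Cox4i2 and Ndufa4l2 are forms known to respond to low oxygen. Cox4i2 had 20.1 and 18.4 CPM in uninjured hearts, 11.6 and 5.71 at day 3, 11.7 and 24.1 at day 7, 6.77 and 22.7 at week 2 and 12.8 and 13 at week 4. Ndufa4l2 had 120.4 and 148 CPM in uninjured hearts, 115 and 92.2 at day 3, 155 and 219.9 at day 7, 114 and 142 at week 2 and 146 and 104 at week 4. Neither passed at day 3, with log2 fold changes of -1.15 ± 0.62 and -0.38 ± 0.26. Both are expressed in pericytes in mouse, and the summed level of 8 pericyte and smooth muscle markers was 882 and 386 CPM in uninjured hearts, 157 and 77.7 CPM at day 3 and 435 and 1136 CPM at week 2. Their part in the levels of Cox4i2 and Ndufa4l2 was not tested. Cox7a2l, which encodes a factor that joins complexes III and IV in supercomplexes, had 106 and 136 CPM in uninjured hearts, 179 and 192 at day 3, 191 and 327 at day 7, 131 and 151 at week 2 and 126 and 103 at week 4. Its mean was highest at day 7, where it rose by 1.10 ± 0.27 on the log2 scale (edgeR adjusted p = 0.027), whereas at day 3 the log2 fold change of 0.62 ± 0.26 did not pass.

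**Figure D2:**
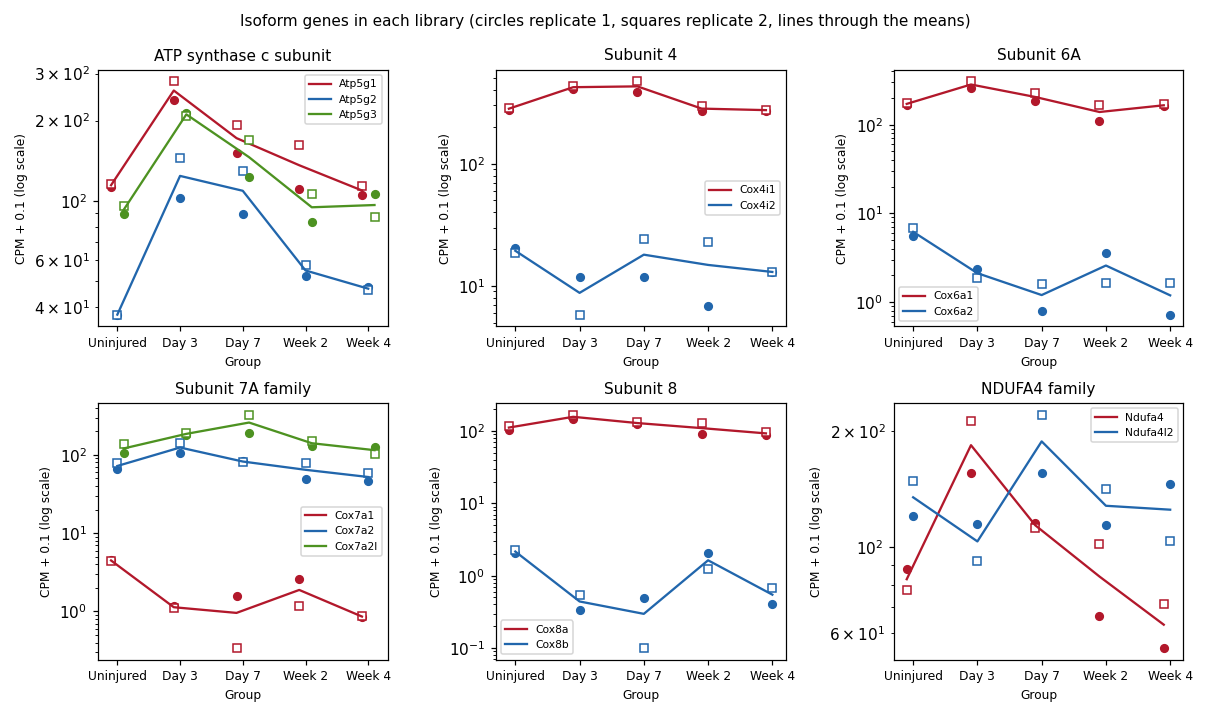
CPM + 0.1 on a log scale for the isoform families, by group; circles are replicate 1, squares replicate 2, and lines join group means. The c-subunit genes peak together at day 3, Cox6a2, Cox7a1 and Cox8b are lower at day 3 than in uninjured hearts, and Ndufa4l2 and Cox7a2l have their highest means at day 7.

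Complex III passes electrons from ubiquinol to cytochrome c. Of its 8 genes, 2 rose at day 3, where 7.39% of all tested genes rose, and the median log2 fold change of the 8 was 0.53. Uqcrc2, a large matrix-facing core subunit, had 116 and 129 CPM in uninjured hearts, 172 and 261 at day 3, 153 and 200.4 at day 7, 99.8 and 117 at week 2 and 115 and 109 at week 4. It rose by 0.82 ± 0.25 on the log2 scale (edgeR adjusted p = 0.048), although the lower day 3 library lay below the higher day 7 one. Uqcrq, a small subunit near cytochrome b, had 67.0 and 71.5 CPM in uninjured hearts, 123 and 178 at day 3, 91.2 and 101 at day 7, 57.8 and 124 at week 2 and 54.4 and 62.3 at week 4. It rose by 1.12 ± 0.33 on the log2 scale (edgeR adjusted p = 0.043), and week 2 replicate 2 matched the lower day 3 library. Uqcrb, which binds near the ubiquinone site, had 121 and 125 CPM in uninjured hearts, 178 and 217 at day 3, 146 and 159 at day 7, 92.2 and 159.6 at week 2 and 86.9 and 104 at week 4. Its log2 fold change of 0.68 ± 0.26 at day 3 did not pass.

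Complex II, succinate dehydrogenase, links the tricarboxylic acid cycle to the chain. None of its 4 genes passed at day 3, where 2 were higher at an unadjusted p under 0.05 and DESeq2 called 1. Over all tested genes 7.39% rose at day 3. Sdha, the flavoprotein subunit, had 318 and 330.0 CPM in uninjured hearts, 353 and 324 at day 3, 208 and 301 at day 7, 259 and 219 at week 2 and 285 and 224 at week 4. Sdhb, the iron-sulfur subunit, had 233 and 209 CPM in uninjured hearts, 235 and 319 at day 3, 223 and 219 at day 7, 193 and 258 at week 2 and 164 and 192 at week 4. Both overlapped between day 3 and uninjured hearts or nearly so, with log2 fold changes of 0.06 ± 0.23 and 0.33 ± 0.22. Sdhc and Sdhd anchor the enzyme in the membrane. Sdhc had 90.1 and 94.0 CPM in uninjured hearts, 162 and 157 at day 3, 99.9 and 159 at day 7, 61.6 and 65.6 at week 2 and 102 and 82.9 at week 4. Sdhd had 91.9 and 104 CPM in uninjured hearts, 142 and 153 at day 3, 123 and 141 at day 7, 90.1 and 133 at week 2 and 81.4 and 85.3 at week 4. Sdhc differed among the 5 groups (edgeR adjusted p = 0.019) and had a log2 fold change of 0.80 ± 0.25 at day 3 (adjusted p = 0.059), whereas that of Sdhd was 0.58 ± 0.24 (adjusted p = 0.14).

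Complex I, NADH dehydrogenase, had the most genes. Of 36 subunit genes 1 rose at day 3, where 7.39% of all tested genes rose, with a median log2 fold change of 0.45. At an unadjusted p under 0.05, 11 of the 36 were higher and 0 lower. The 7 core subunit genes, which carry the flavin and iron-sulfur centres, had a median of 0.34, and the 29 accessory subunit genes 0.53. DESeq2 called 0 of the 7 and 2 of the 29. Ndufs5, an accessory subunit of the intermembrane space, had 51.1 and 41.7 CPM in uninjured hearts, 90.0 and 101 at day 3, 57.4 and 63.6 at day 7, 38.8 and 67.4 at week 2 and 45.3 and 51.0 at week 4. It rose by 1.04 ± 0.30 on the log2 scale (edgeR adjusted p = 0.039), with no overlap between the day 3 libraries and any other. Ndufa9, which contacts the quinone channel, had 123 and 109.9 CPM in uninjured hearts, 165 and 215 at day 3, 124 and 98.7 at day 7, 100.3 and 118 at week 2 and 95.5 and 99.0 at week 4. It differed among the 5 groups (edgeR adjusted p = 0.044) without passing at day 3. Ndufb5 had 73.0 and 70.4 CPM in uninjured hearts, 107 and 121 at day 3, 86.8 and 114 at day 7, 56.8 and 74.1 at week 2 and 60.7 and 60.1 at week 4. Ndufc2 had 82.4 and 85.2 CPM in uninjured hearts, 114 and 142 at day 3, 104 and 128 at day 7, 67.7 and 104 at week 2 and 64.5 and 64.6 at week 4. Ndufa3 had 38.1 and 24.7 CPM in uninjured hearts, 40.9 and 91.4 at day 3, 63.0 and 56.4 at day 7, 33.1 and 76.9 at week 2 and 13.1 and 22.7 at week 4. These 3 accessory genes did not pass at day 3, and in Ndufa3 day 3 replicate 1 lay close to uninjured replicate 1.

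By day 7 most genes were lower than at day 3 but above the uninjured level. Against uninjured hearts 2 of 95 rose at day 7 (Atp5g2 and Cox7a2l) and 0 fell, with 10 higher and 0 lower at an unadjusted p under 0.05 and 5 called by DESeq2. Over all tested genes 4.39% rose and 2.76% fell, more than among the nuclear-encoded genes. At an unadjusted p under 0.05, 1662 of the 14968 tested genes were higher and 1355 lower. The median log2 fold change of the 95 was 0.22, and 57 lay above both uninjured libraries while 17 lay below both. Of the 14968 tested genes, 4083 lay above both and 4142 below both. Without day 7 replicate 2 the count of 2 was 0, and without either uninjured library it was 1. Against day 3, 0 of 95 rose or fell at day 7, where 0.822% of all tested genes rose and 0.555% fell. At an unadjusted p under 0.05, 19 of the 95 were lower and 1 higher, DESeq2 called 4, and 59 lay below both day 3 libraries. Of the 14968 tested genes, 1220 were lower and 1041 higher at that threshold, and 3554 lay below both day 3 libraries.

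At week 2 the nuclear-encoded genes were near the uninjured level. Against uninjured hearts 0 of 95 rose or fell, 1 was higher and 1 lower at an unadjusted p under 0.05, DESeq2 called 0, and the median log2 fold change was 0.07. Over all tested genes 1.44% rose and 0.454% fell, and 876 of 14968 were higher and 703 lower at an unadjusted p under 0.05. The week 2 sums were 7821 and 10790 CPM, and both uninjured sums lay between them. Against day 7, 0 rose or fell, where 0.194% of all tested genes rose and 0.454% fell. At an unadjusted p under 0.05, 1301 of the 14968 tested genes were lower and 1115 higher, against 11 lower and 0 higher of the 95. DESeq2 called 3 of the 95. Without day 7 replicate 1 the count against day 7 was 3.

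At week 4 most genes lay somewhat below the uninjured level. The summed level was 7756 and 8187 CPM at week 4, against 9108 and 9401 CPM in uninjured hearts, and 66 of 95 lay below both uninjured libraries while 4 lay above. Of the 14968 tested genes, 3838 lay below both and 3839 above both. The median log2 fold change of the 95 was -0.27. No single gene passed (0 of 95, with 2 lower and 0 higher at an unadjusted p under 0.05, and 0 by DESeq2), where 1.85% of all tested genes rose and 0.474% fell. At an unadjusted p under 0.05, 726 of the 14968 tested genes were lower and 1179 higher.

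Among the 7 comparisons, that of week 4 against day 3 had the most calls. There 42 of 95 fell and 0 rose in edgeR's test, 44.2% against 7.52% of all tested genes falling and 5.84% rising. In both week 4 libraries 88 of the 95 lay below both day 3 libraries, against 4265 of the 14968 tested genes. The median log2 fold change was -0.82, against 0.04 over all tested genes. By complex, 15 of 17 fell in complex V (median -1.13), 10 of 11 among general and 0 of 7 among isoform genes of complex IV, 4 of 8 in complex III, 1 of 4 in complex II and 12 of 36 in complex I. Of the 12 assembly-factor genes 0 fell, with 3 lower at an unadjusted p under 0.05 and 2 called by DESeq2. All 42 were structural subunits. The assembly-factor genes had a median log2 fold change of -0.68, with 11 of 12 negative, and the structural subunits -0.85. Whether these classes differ was not tested. DESeq2 called 54 of 95. The count was 4 without day 3 replicate 2 or without week 4 replicate 1, and 13 without week 4 replicate 2, while the median log2 fold change stayed between -0.89 and -0.74.

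Ndufa4 fell most clearly, to 54.8 and 71.2 CPM at week 4, against 155 and 211 CPM at day 3, with a log2 fold change of -1.54 ± 0.27 (edgeR adjusted p = 0.0035), and passed under every one of the 17 alternatives. The week 4 level of Ndufa4 lay below both uninjured libraries. On the log2 scale Cox5b fell, with -1.33 ± 0.25 (adjusted p = 0.0046), as did Cox6c, with -1.53 ± 0.35 (adjusted p = 0.014), and Atp5f1, with -1.03 ± 0.19 (adjusted p = 0.0051). The c-subunit genes Atp5g1, Atp5g2 and Atp5g3 fell, with -1.24 ± 0.24, -1.41 ± 0.27 and -1.13 ± 0.24. Their week 4 levels lay within or above the uninjured range, apart from 1 library each of Atp5g1 and Atp5g3. The greatest estimates were in small subunits whose day 3 libraries differed widely. Atp5k (e subunit) had 7.42 and 8.47 CPM at week 4, against 18.9 and 46.7 CPM at day 3, a log2 fold change of -2.04 ± 0.59 (edgeR adjusted p = 0.038). The fold changes of Atp5md and Ndufa3 were -1.96 ± 0.47 and -1.88 ± 0.49, and both fell.

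**Figure D3:**
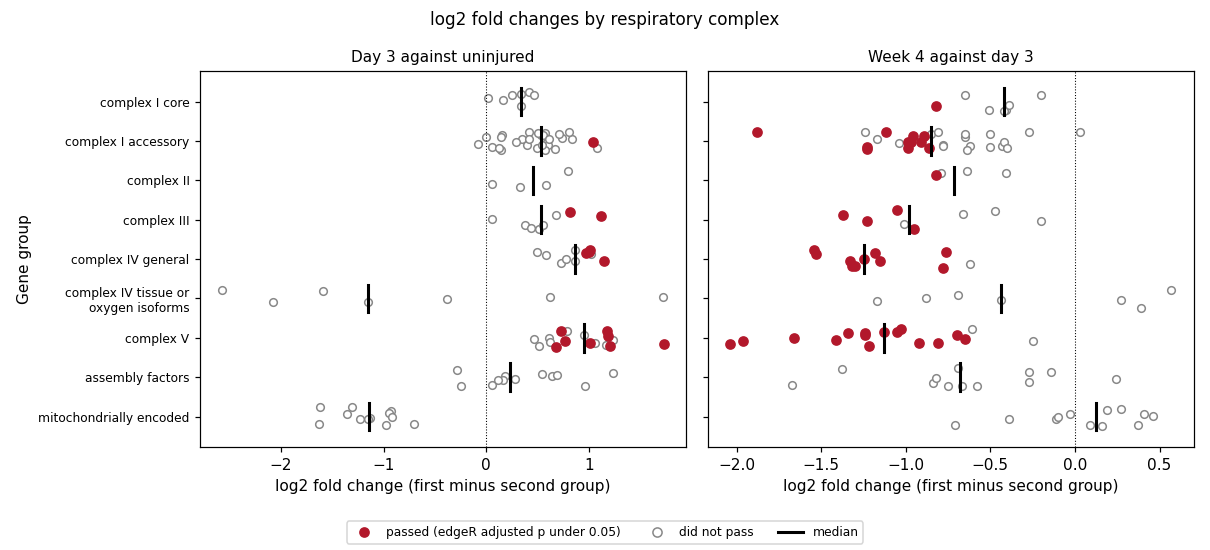
Each point is the log2 fold change of 1 gene from the edgeR fit, by complex, for day 3 against uninjured (left) and week 4 against day 3 (right); filled red points passed at an adjusted p under 0.05 and bars are medians. Most filled points are genes of complex V and general subunits of complex IV in the left panel and of these and complex I in the right, isoform genes of complex IV scatter on both sides of 0, and mitochondrially encoded genes lie below 0 at day 3 (mt-Nd3, at 0 in both day 3 libraries, is not drawn).

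At day 3 the levels of mitochondrially encoded genes lay on the other side of the uninjured level from the nuclear-encoded ones, without passing the test. The summed level of the 13 mitochondrially encoded protein genes was 14110 and 10550 CPM at day 3, against 25810 and 26950 CPM in uninjured hearts, and the ratio of the mitochondrial to the nuclear sum was 1.10 and 0.709 at day 3, against 2.83 and 2.87 in uninjured hearts. All 13 had a negative log2 fold change at day 3, with a median of -1.15. Of the 14968 tested genes 4575 lay below both uninjured libraries, against 12 of the 13. These counts include mt-Nd3, which was listed at 0 in 5 libraries, and the median was also -1.15 with mt-Nd3 at a floor of 3 counts per library. None passed in edgeR's test (0 of 13), with 7 lower and 0 higher at an unadjusted p under 0.05, where 1637 of the 14968 tested genes were lower. The call depended on the processing: 5 of 13 passed by DESeq2, 13 without the filter on low counts, 10 in a fit of these groups alone, 8 without either week 2 library and 1 without either day 7 library.

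The most abundant counts came from mt-Cytb and mt-Co1, the core subunits of complexes III and IV. mt-Cytb had 8276 and 7776 CPM in uninjured hearts, 4756 and 3545 at day 3, 3646 and 4634 at day 7, 11440 and 4515 at week 2 and 3160 and 4597 at week 4. mt-Co1 had 6570 and 6664 CPM in uninjured hearts, 3591 and 2475 at day 3, 3045 and 3993 at day 7, 11240 and 2342 at week 2 and 2369 and 3591 at week 4. Both were higher in the uninjured libraries than in every library after MI except week 2 replicate 1, the highest of all. The log2 fold changes at day 3 were -0.95 ± 0.37 and -1.13 ± 0.58 (edgeR adjusted p = 0.13 and 0.28). Among complex I genes, mt-Nd1 had 2562 and 2520 CPM in uninjured hearts, 1497 and 1184 at day 3, 1031 and 1159 at day 7, 4171 and 1043 at week 2 and 1217 and 1640 at week 4. mt-Nd4 had 3003 and 2879 CPM in uninjured hearts, 1450 and 849.6 at day 3, 1288 and 1692 at day 7, 4788 and 1117 at week 2 and 1211 and 1854 at week 4. mt-Nd5 had 984 and 1307 CPM in uninjured hearts, 544 and 434 at day 3, 465 and 471 at day 7, 2184 and 474 at week 2 and 389.8 and 728 at week 4. In each, week 2 replicate 1 was the highest library and the uninjured libraries came next. mt-Nd2 had 1234 and 1230 CPM in uninjured hearts, 512 and 283 at day 3, 339 and 323 at day 7, 1954 and 432 at week 2 and 372 and 656 at week 4. mt-Nd6, the only protein gene encoded on the light strand, had 279.6 and 222 CPM in uninjured hearts, 91.2 and 72.1 at day 3, 86.3 and 81.8 at day 7, 421 and 111 at week 2 and 78.9 and 118 at week 4. Of the genes with counts in every library, these had the most negative log2 fold changes at day 3, -1.63 ± 0.61 and -1.62 ± 0.50. mt-Nd4l had 151 and 144 CPM in uninjured hearts, 95.5 and 53.8 at day 3, 74.7 and 124 at day 7, 175 and 59.0 at week 2 and 66.4 and 100.0 at week 4. mt-Co2 had 1385 and 1177 CPM in uninjured hearts, 649 and 388 at day 3, 504 and 944 at day 7, 1388 and 525 at week 2 and 487 and 941 at week 4. mt-Atp8 had 269 and 245 CPM in uninjured hearts, 170.1 and 146 at day 3, 153 and 281 at day 7, 236 and 194 at week 2 and 114 and 127 at week 4. mt-Atp8 differed least at day 3, with -0.70 ± 0.27.

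The other mitochondrial genes had uneven counts. mt-Atp6 had 585 and 1131 CPM in uninjured hearts, 321 and 579.8 at day 3, 565 and 374 at day 7, 2261 and 355 at week 2 and 202 and 347 at week 4. Uninjured replicate 1 and day 3 replicate 2 of mt-Atp6 were nearly level. mt-Co3 had 511 and 1649 CPM in uninjured hearts, 433 and 538 at day 3, 836 and 557 at day 7, 2703 and 0.113 at week 2 and 345 and 556 at week 4. Week 2 replicate 2 held 2 counts of mt-Co3, against 5579 to 48709 in the other libraries. mt-Nd3 had 74 and 148 counts in uninjured hearts, 58 and 150 at day 7 and 233 and 0 at week 2, and was listed at 0 in all libraries of day 3 and week 4. The deposited values are estimated counts, and mt-Nd1, of the same complex and genome, had 18539 to 75169 counts in every library. The part of the estimation in the 0 counts of mt-Nd3 and the 2 counts of mt-Co3 was not tested. No fold is given for mt-Nd3. Leaving out these 3 genes, the sums were 13350 and 9430 CPM at day 3, against 24710 and 24160 CPM in uninjured hearts.

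The mitochondrial sum stayed low at later times apart from 1 library, with 12040 and 14640 CPM at day 7, 42980 and 11170 CPM at week 2 and 10010 and 15260 CPM at week 4. At an unadjusted p under 0.05, 1355, 703 and 726 of the 14968 tested genes were below uninjured hearts at day 7, week 2 and week 4. Against uninjured hearts 0 of 13 passed at day 7, week 2 or week 4 in edgeR's test, with 4, 0 and 4 at an unadjusted p under 0.05 and 4, 0 and 3 by DESeq2. Without week 2 replicate 1 those counts were 5, 3 and 4, and without week 2 replicate 2 those of day 7 and week 4 were 5 each. The week 4 count was 1 without any library of day 3 or day 7. At week 4 the nuclear and the mitochondrial sums were both below the uninjured range. Between week 4 and day 3, 7 mitochondrial genes had a positive and 5 a negative log2 fold change, and 0 passed (0 at an unadjusted p under 0.05 and 0 by DESeq2), where the nuclear median was -0.82. Erythroid markers were also lower after MI, with sums of 1204 and 142 CPM at day 3 and 1913 and 2324 CPM at week 4, against 4131 and 5985 CPM in uninjured hearts. At week 2 they summed to 1438 and 3716 CPM, where the mitochondrial sum was higher in replicate 1. Of the 7 erythroid markers 5 passed the count filter, 0 passed the test at day 3, and Slc4a1 was at 0 in all libraries. The cardiomyocyte markers summed to 271 and 327 CPM in uninjured hearts, 162 and 116 at day 3 and 143 and 171 at day 7. Their sums were 288 and 192 CPM at week 2 and 115 and 220 at week 4. In every group the library with the higher cardiomyocyte sum also had the higher mitochondrial sum. The part of erythroid and of cardiomyocyte RNA in the mitochondrial levels was not tested.

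**Figure D4:**
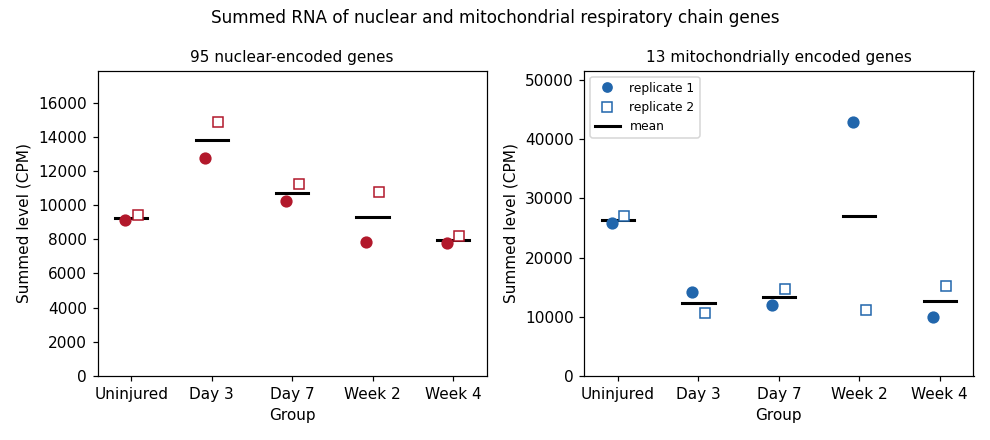
Summed CPM of the 95 nuclear-encoded genes (left) and the 13 mitochondrially encoded genes (right) by group; circles are replicate 1, squares replicate 2 and bars the mean. The nuclear sum is highest at day 3, where the mitochondrial sum is below both uninjured libraries, and week 2 replicate 1 has the highest mitochondrial sum and one of the lowest nuclear sums.

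Genes that work with the chain were read from lists chosen beside it. Of 13 electron and nucleotide carriers, 5 rose and 0 fell at day 3, and 9 fell and 0 rose between week 4 and day 3. The shares over all tested genes were 7.39% rising at day 3 and 7.52% falling between week 4 and day 3. Vdac1, the main channel of the outer membrane, had 63.4 and 66.7 CPM in uninjured hearts, 162 and 210.4 at day 3, 139 and 140.2 at day 7, 76.0 and 62.7 at week 2 and 94.4 and 76.9 at week 4. It rose at day 3 by 1.52 ± 0.23 on the log2 scale (edgeR adjusted p = 0.0017). Slc25a5, an exchanger of ADP and ATP, had 450.5 and 383 CPM in uninjured hearts, 937 and 1223 at day 3, 466 and 541 at day 7, 363 and 560.4 at week 2 and 334 and 342 at week 4. It rose by 1.37 ± 0.24 on the log2 scale (adjusted p = 0.0036). Cycs, cytochrome c, had 183 and 184 CPM in uninjured hearts, 326 and 455 at day 3, 161 and 211 at day 7, 152 and 214 at week 2 and 121 and 145 at week 4. It rose by 1.09 ± 0.25 on the log2 scale (adjusted p = 0.013), and day 3 did not overlap any other group in these 3 genes.

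Of 17 genes of the tricarboxylic acid cycle, 3 rose and 0 fell at day 3, and 3 fell between week 4 and day 3. The matching shares over all tested genes were 7.39% rising and 7.52% falling. At day 3 the median log2 fold change of the 17 was 0.28, with 12 positive and 5 negative. Cs, citrate synthase, had 103 and 71.6 CPM in uninjured hearts, 173 and 167 at day 3, 112 and 121 at day 7, 82.1 and 60.0 at week 2 and 97.4 and 88.6 at week 4. Mdh2, mitochondrial malate dehydrogenase, had 332 and 304 CPM in uninjured hearts, 536 and 652 at day 3, 307 and 406 at day 7, 320.5 and 358 at week 2 and 303 and 306 at week 4. Dlst, of the 2-oxoglutarate dehydrogenase complex, had 29.0 and 25.4 CPM in uninjured hearts, 54.8 and 65.6 at day 3, 29.7 and 29.5 at day 7, 17.3 and 21.9 at week 2 and 43.0 and 40.8 at week 4. Day 3 was the highest group in all 3, with log2 fold changes of 0.96 ± 0.25, 0.90 ± 0.21 and 1.14 ± 0.30 (edgeR adjusted p = 0.025, 0.015 and 0.028).

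Of 11 tested genes known to respond to hypoxia, 2 rose at day 3, both encoding glycolytic enzymes, and 0 fell. Over all tested genes 7.39% rose and 4.4% fell. The median log2 fold change of the 11 was 0.04, with 6 positive and 5 negative. At an unadjusted p under 0.05, 3 of the 11 were higher and 2 lower. Pgk1, phosphoglycerate kinase, had 114 and 107 CPM in uninjured hearts, 305 and 444 at day 3, 161 and 232 at day 7, 109.9 and 152 at week 2 and 121 and 117 at week 4, a log2 fold change of 1.76 ± 0.26 (edgeR adjusted p = 0.0015). Ldha, lactate dehydrogenase A, had 409 and 510.2 CPM in uninjured hearts, 1004 and 1291 at day 3, 591 and 847 at day 7, 520.4 and 398 at week 2 and 596 and 551 at week 4, a log2 fold change of 1.32 ± 0.25 (adjusted p = 0.0047). Pdk1, the kinase that restrains pyruvate entry into the mitochondrion, had 13.8 and 17.7 CPM in uninjured hearts, 12.2 and 9.64 at day 3, 21.2 and 16.6 at day 7, 19.2 and 15.5 at week 2 and 35.3 and 26.2 at week 4. It did not pass at day 3 and rose between week 4 and day 3 by 1.49 ± 0.42 (edgeR adjusted p = 0.032).

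None of 21 tested regulators of mitochondrial genes passed in any of the 7 comparisons by edgeR, and 1 was higher and 0 lower at day 3 at an unadjusted p under 0.05. DESeq2 called 1 at day 7 against uninjured, 1 at week 2 against day 7, 3 at week 4 against day 3 and 0 in the other comparisons. Nrf1, a transcription factor of respiratory genes, had 38.8 and 38.7 CPM in uninjured hearts, 26.1 and 32.5 at day 3, 21.4 and 31.2 at day 7, 37.2 and 16.6 at week 2 and 36.1 and 32.4 at week 4. Tfam, which packages and transcribes mitochondrial DNA, had 25.3 and 37.5 CPM in uninjured hearts, 22.6 and 37.3 at day 3, 15.8 and 35.7 at day 7, 27.0 and 24.4 at week 2 and 21.3 and 30.7 at week 4. The day 3 and uninjured libraries of Tfam overlapped, and both day 3 libraries of Nrf1 lay below the uninjured ones without passing (log2 fold change -0.40 ± 0.40, edgeR adjusted p = 0.58). Ppargc1a, a coactivator of mitochondrial biogenesis, had 13 and 47 counts in uninjured hearts and 0 and 0 at day 3. It had 0 and 30 counts at day 7, 34 and 1 at week 2 and 20 and 2 at week 4. These counts were low and uneven within groups, and Ppargc1a did not pass. Esrra, the estrogen-related receptor alpha, had 0 to 91 counts per library and did not pass.

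Ribosomal protein genes were read beside the respiratory genes. Of 78 mitochondrial ribosomal protein genes 8 rose at day 3 and 16 fell between week 4 and day 3, with medians of 0.61 and -0.67. Of 80 cytosolic ribosomal protein genes 73 rose and 78 fell, with medians of 1.32 and -1.34. Over all tested genes 7.39% rose at day 3 and 7.52% fell between week 4 and day 3. The nuclear-encoded respiratory genes had medians of 0.57 and -0.82, and whether the lists differ from each other was not tested. Among 35 assembly factors outside the symbol rule 0 passed at day 3, with 4 higher and 1 lower at an unadjusted p under 0.05 and 2 called by DESeq2. At that unadjusted threshold 2101 of the 14968 tested genes were higher and 1637 lower. Between week 4 and day 3, 1 of them fell, Cox19, a copper-handling factor of complex IV assembly, with 17.7 and 17.1 CPM at week 4, against 41.3 and 44.4 CPM at day 3 and a log2 fold change of -1.30 ± 0.33 (edgeR adjusted p = 0.023). At an unadjusted p under 0.05, 6 of the 35 were lower and 0 higher in that comparison, where 2130 of the 14968 tested genes were lower. DESeq2 called 4 of the 35, all lower.

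Promoters of the nuclear-encoded genes were accessible in nearly all libraries of every group. RefSeq promoters were matched for 79 of the 95. Within 500 bases of the gene start, 76 of the 79 (96.2%) had an ATAC-seq peak in all 10 libraries, against 9292 of 11097 tested genes with a promoter entry (83.7%). The number with a peak was 76 or 77 in each library, while lists held 63933 to 107832 peaks, so the presence of a peak did not separate day 3 from uninjured hearts. The exceptions were 3. Cox8b, a muscle isoform, had a peak in week 4 replicate 2 only, Sdhaf1 in 7 libraries, and Cox7a2l in 0. Sdhaf1 and Cox7a2l had a peak in all 10 libraries at their RefSeq starts, 1520 and 2997 bases away.

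Over the 300-base promoters on both strands, counting overlapping matches, 26 of 79 (32.9%) held the NRF1 motif, against 2136 of 11097 tested genes (19.2%). The ETS motif was in 21 (26.6%), against 17.2% of tested genes. The YY1 motif was in 10 (12.7%) and the ERR motif in 8 (10.1%), against 4.39% and 3.05% of tested genes. At least 1 of the 4 was in 47 of 79 (59.5%), against 37.4%. The SP motif GGGCGG went the other way, with 38 (48.1%) against 63.0%, and CCAAT was in 34 (43.0%) against 38.7%. Median GC content was 58.7% in the promoters of the nuclear-encoded genes and 60.7% over tested genes. These shares describe letters in the windows and were not tested.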

How the data were processed

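The RNA table deposited by the authors holds expected counts per Ensembl gene, which are not whole and have unequal totals. Which program estimated them, with what use of strand and of reads matching several places, is not given in the sources used here, and genes with near-identical copies are uncertain. The ATAC-seq lists deposited by the authors are narrowPeak files, 1 per library, with a score, a fold enrichment ratio, the −log10 of p and q and a summit offset. Per the submitters' processing notes, Trim Galore 0.6, FastQC, STAR 2.5.3a, DESeq2, Bowtie2 2.3 and MACS2 and the builds mm10 and GRCm38 were used, with no roles given. Columns left unmapped: 0.

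Counts were rounded and fitted in R 4.3.3 with edgeR 4.0.16 (TMM, filterByExpr, robust quasi-likelihood, 10 libraries in 1 fit, group as factor, 5 residual degrees of freedom), with Benjamini-Hochberg adjustment over 14968 genes at 0.05 in each comparison. The table held 7481 genes with no rounded count. Scripts were tested on simulated data. DESeq2 1.42.0, other scalings, no filter, the compared groups alone, a replicate block and omission of each library were alternatives. Python 3.11.15, pandas 2.3.3 and matplotlib 3.10.9 made the summaries and plots. Peaks were counted where they overlapped a window around the gene start in the table. RefSeq promoters of GRCm38.p6 were matched by symbol or RefSeq synonym and by position at the gene. Floors of 3 counts cover counting error only, since reads amplified by PCR are not independent molecules.

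Genes named in the text are the members passing in any of 7 comparisons or among groups, up to 30 by adjusted p among groups, with isoform pairs, Sdha to Sdhd, the mitochondrial genes, up to 3 passing genes per related list and 4 regulators. Ndufs5, Atp5k, Cox8b's peak and Sdhaf1 were named after their values were seen. The members, the lists and the tests were chosen with earlier results of these data known.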

Additional observations from a re-analysis of the deposited data

Results flagged for a closer look

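The change from uninjured hearts differed between week 4 and day 3 for 42 of the 95 nuclear-encoded genes, by the contrast of week 4 against day 3 in edgeR's fit, which tests that difference itself since both share the uninjured libraries. All 42 were lower at week 4, which is 44.2% of the 95, where 7.52% of all tested genes fell and 5.84% rose. The count was 4 without day 3 replicate 2 or without week 4 replicate 1.

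A row outside the comparisons, Ndufb1-ps, carried signal above its level in uninjured hearts. RefSeq gives this symbol as another name of the protein-coding gene Ndufb1, an accessory subunit of complex I. Its mean was 28.1 CPM at day 3, against a mean of 13.1 CPM in uninjured hearts, with 21.1 and 35.1 CPM at day 3, against 14.5 and 11.7 CPM in uninjured hearts. Its log2 fold change was 1.10, which did not pass (edgeR adjusted p = 0.21), and between week 4 and day 3 it was -1.50 (adjusted p = 0.079).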

How the results depend on the processing

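No called gene reversed its direction under any alternative. Of 15 calls at day 3, Atp5g2 held under all 17 alternatives, and of 42 calls between week 4 and day 3, Ndufa4 did. Leaving out each library gave 2 to 24 calls at day 3, 0 to 2 at day 7, 0 to 3 at week 2 against day 7, 4 to 51 at week 4 against day 3 and 3 to 43 among groups. DESeq2 called 23 at day 3, 5 at day 7, 4 at day 7 against day 3, 3 at week 2 against day 7 and 38 among groups. Without the filter on low counts 1 was called at day 7 against day 3, 3 at week 2 against day 7 and 32 among groups, and with the compared groups alone 1 at day 7. The cause of these differences was not tested. Structural subunits alone summed to 8982 CPM in uninjured hearts.

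For the 13 mitochondrially encoded genes, 0 of which passed in the main test, under alternatives added after seeing the data the calls at day 3, day 7 and week 4 against uninjured were 13, 9 and 11 without the filter, 5, 4 and 3 by DESeq2, and 10, 4 and 4 with the compared groups alone. Without the filter 1 was called at day 7 against day 3 and 9 at week 2 against day 7, where DESeq2 called 3. DESeq2's size factors and upper-quartile scaling called 1 each at week 4. Among groups these scalings called 1 and 2, totals without the mitochondrial genome 1, no filter 13 and DESeq2 7. Leaving out each library gave 0 to 8 at day 3, 0 to 5 at day 7, 0 to 3 at week 2, 0 to 5 at week 4, 0 to 1 at day 7 against day 3, 0 to 4 at week 2 against day 7 and 0 to 9 among groups. At week 2 against day 7 the direction turned with 1 library: without week 2 replicate 1, 1 fell and the median log2 fold change was -0.37, and without week 2 replicate 2, 4 rose and the median was 1.69.

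No pairing by replicate number was seen over all tested genes: the correlation of same-numbered deviations was over 0.1 in 0 of 10 pairs of groups. Noise of genes with few counts enters this correlation, so it cannot exclude a pairing or a shared batch. With a replicate block 18 nuclear-encoded genes were called at day 3, 44 at week 4 against day 3 and 23 among groups. Peak counts at the starts were 76 or 77 of 79 under windows of 250 to 1000 bases and a minimum −log10 q of 10, and 78 at RefSeq starts, an alternative chosen after seeing the data. Each group had 2 libraries, and the effect of depth on the calls was not tested.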

Other observations

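Libraries of a group differed in the level of the nuclear-encoded genes as a whole. At day 3, 73 of 95 were higher in replicate 2 than in replicate 1, and at week 4 also 73, with median log2 differences of 0.22 and 0.12. In uninjured hearts 50 were higher in replicate 2 and 45 in replicate 1. At week 2 the mitochondrial sum went the other way from the nuclear sum, with 42980 CPM in replicate 1 and 11170 CPM in replicate 2, where the nuclear sums were 7821 and 10790 CPM.

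Among the 12 assembly-factor genes the greatest log2 fold change at day 3 was that of Ndufaf2, a complex I assembly factor, which had 6.77 and 8.57 CPM in uninjured hearts, 16.6 and 19.4 at day 3, 14.4 and 20.3 at day 7, 10.9 and 8.999 at week 2 and 8.10 and 5.75 at week 4. The day 3 and day 7 libraries lay above all others, but the log2 fold change of 1.23 ± 0.52 did not pass (edgeR adjusted p = 0.16). Cox6b2, a form of subunit 6B first known from testis, had 1.65 and 0.804 CPM in uninjured hearts, 4.04 and 4.10 at day 3, 6.05 and 6.57 at day 7, 2.88 and 6.02 at week 2 and 1.86 and 1.75 at week 4. All 4 libraries of day 3 and day 7 lay above the uninjured ones, with a log2 fold change of 1.72 ± 1.10 at day 3 that did not pass (edgeR adjusted p = 0.37). Both genes were named after their values were seen.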
